A study of Mus musculus with 5 samples.

Results

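The Hox, Pax, Lhx, Nkx, Sox, Fox, Tbx, Isl, Wnt, Fgf and Six-type families encode transcription factors and secreted morphogens that pattern the embryo. Their members were taken by symbol: a gene entered when any of the 4 region lists called against IgG assigned it a region and its symbol began with a family name followed by a number, or by a letter and a number. The pattern matched 114 symbols, of which 8 were left out: 3 FGF receptors (Fgfr1, Fgfr3 and Fgfr4) and 5 genes of other families or antisense genes. The remaining 106 genes, of 17024 gene symbols in all lists, are described here. RefSeq (GRCm38.p6) names 195 genes of these families, and the other 89, among them Hoxa9, Hoxa10, Foxp3, Sox2, Isl1 and Wnt5a, were the assigned gene of no region and are not among the 106.

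The study mapped STAT3, which carries cytokine signals to DNA, and H3K4me3, trimethylated lysine 4 of histone H3 found at promoters, by ChIP-seq in mouse dendritic cells. Bone marrow of C57BL/6 females aged 10 weeks was grown for 7 days in GM-CSF and IL-4 (10 ng/mL each), and CD11c cells were selected to a labelled purity of 95%. The cells then received SAHA (vorinostat, an inhibitor of histone deacetylases, at a dose labelled 500 nm) or diluent for 12 hours. The groups were H3K4me3 in SAHA, H3K4me3 in diluent, STAT3 in SAHA, STAT3 in diluent and, as the control, IgG in diluent. Each group had 1 library, so no difference between SAHA and diluent has a replicate check. The labels do not say how many mice were pooled.

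Filtered tags, the mapped reads kept by the peak caller, numbered 21428355 for H3K4me3 in SAHA, 22420200 for H3K4me3 in diluent, 17810183 for STAT3 in SAHA, 25013431 for STAT3 in diluent and 18925827 for IgG. The H3K4me3 lists held 25723 regions in SAHA and 22255 in diluent, and the STAT3 lists 8552 in SAHA and 3507 in diluent. All 10 dendritic cell markers examined, among them Itgax, which encodes CD11c, Flt3 and Zbtb46, carried H3K4me3 in both conditions. Of other lineages, 2 of 5 T cell markers and 2 of 4 B cell markers could be scored. Of the scored T cell markers only Lck carried H3K4me3, in both conditions, and of the scored B cell markers only Cd79b, in diluent. Neurod1 and Cdh1, the scored pair among 5 markers of neural, muscle, epithelial and liver cells, carried H3K4me3 in both conditions. In such bulk samples, fewer cells with a mark and less of the mark per cell cannot be told apart.

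HOX proteins are DNA-binding factors encoded in clusters whose gene order follows the body axis, and PAX, LHX, NKX, ISL and SIX-type proteins are further homeodomain or paired-domain factors of organ formation. SOX, FOX and TBX proteins bind DNA through other domains, while WNT and FGF proteins are ligands that act on receptors of neighbouring cells. In differentiated cells the CpG-rich promoters of many of these genes are kept silent by Polycomb, sometimes with low H3K4me3, whereas several FOX, SOX and HOX factors work in blood and immune cells.

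The reference promoters of 4 members illustrate the sequence behind the readout, which differed widely between them: Foxo3 had the most H3K4me3 tags of the families, Wnt9b and Isl2 the largest ratios in opposite directions, and Pax5 no H3K4me3 region within 5 kb. Each sequence runs 5′ to 3′ from 250 bases before to 50 bases after a RefSeq start (GRCm38.p6), and capitals mark CG dinucleotides. Foxo3 is chr10:42276646-42276945 (minus strand), Wnt9b chr11:103749772-103750071 (minus), Isl2 chr9:55540899-55541198 (plus) and Pax5 chr4:44710645-44710944 (minus).
Foxo3: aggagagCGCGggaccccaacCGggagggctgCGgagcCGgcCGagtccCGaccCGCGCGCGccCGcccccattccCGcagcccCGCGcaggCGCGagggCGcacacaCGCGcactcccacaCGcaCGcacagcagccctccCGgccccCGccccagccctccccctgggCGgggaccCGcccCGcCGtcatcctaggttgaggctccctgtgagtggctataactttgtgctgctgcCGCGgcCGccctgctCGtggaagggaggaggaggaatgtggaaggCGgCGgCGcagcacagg
Wnt9b: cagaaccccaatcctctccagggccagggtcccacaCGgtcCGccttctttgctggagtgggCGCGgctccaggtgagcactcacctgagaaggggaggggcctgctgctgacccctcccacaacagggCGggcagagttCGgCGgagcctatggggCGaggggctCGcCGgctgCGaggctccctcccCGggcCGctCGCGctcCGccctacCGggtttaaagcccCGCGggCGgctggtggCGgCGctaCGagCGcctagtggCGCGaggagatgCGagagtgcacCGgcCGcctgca
Isl2: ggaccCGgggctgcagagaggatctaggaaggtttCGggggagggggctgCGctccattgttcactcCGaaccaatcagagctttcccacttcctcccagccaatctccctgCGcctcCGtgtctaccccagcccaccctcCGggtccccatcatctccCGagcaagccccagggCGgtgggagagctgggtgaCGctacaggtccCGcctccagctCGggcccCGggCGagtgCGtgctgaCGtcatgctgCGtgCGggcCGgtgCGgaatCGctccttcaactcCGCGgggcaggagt
Pax5: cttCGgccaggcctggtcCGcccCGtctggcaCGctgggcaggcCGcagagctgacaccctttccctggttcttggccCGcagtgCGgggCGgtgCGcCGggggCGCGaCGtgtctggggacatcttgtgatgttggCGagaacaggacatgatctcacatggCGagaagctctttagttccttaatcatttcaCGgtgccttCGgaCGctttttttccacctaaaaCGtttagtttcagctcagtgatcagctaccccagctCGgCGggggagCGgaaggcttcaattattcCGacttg

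Where RefSeq gave a gene several promoters, the one with the most CG dinucleotides was taken, for family genes and all genes alike. The CG values therefore lean high for genes with several promoters. The 4 promoters shown held 35 dinucleotides in Foxo3, 29 in Wnt9b, and 23 each in Isl2 and Pax5. The CpG ratio, observed over the number that the base composition gives, was 0.83, 0.75, 0.68 and 0.88 in the same order. Of the 106 genes, 73 matched a RefSeq promoter, with a median CpG ratio of 0.75, against 0.61 over 17486 protein-coding genes. A ratio under 0.4 was found in 11 of the 73 (15.1%), against 37.0% of all. Its median was 0.76 over the 41 genes with an H3K4me3 region in both conditions, 0.61 over the 6 with one in a single condition and 0.75 over the 26 with a region in neither. The median number of CG dinucleotides was 27, 13 and 18.5 in the same order.

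H3K4me3 was listed at 60 developmental genes in SAHA and 59 in diluent, mostly the same ones. A gene was counted when a region of the authors' list lay within 5 kb of a start that any list gives for it. In SAHA these were 56.6% of the 106 genes (exact Clopper-Pearson 95% interval 46.6 to 66.2%), where 85.2% of 14131 scored protein-coding genes had one. In diluent they were 55.7% (interval 45.7 to 65.3%), where 84.2% of scored genes did. The intervals cover counting error only, and PCR reads are not independent molecules. A region was present in both conditions at 54 genes (83.1% of scored genes), in SAHA only at 6 (2.09% of scored genes), in diluent only at 5 (1.07%) and in neither at 41 (13.7%). Those 41 are members only through regions assigned to them from farther away or through STAT3 regions. Membership itself needs an assigned region, so these shares are not shares of the whole families.

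The families differed in how many listed members were marked, but a gene is a member only where a list assigned it a region. That filter was uneven between families. It let in 11 of 39 RefSeq genes for Hox and 28 of 44 for Fox. For Six-type genes it let in 5 of 6, and for Pax genes 7 of 9. The counts that follow therefore describe listed members and do not rank whole families. Fox genes had a region at 18 of 28 members in each condition, and the same 18 in both. Hox genes had one at 10 of 11 in SAHA and 9 of 11 in diluent, Sox genes at 7 of 11 in each, Wnt genes at 7 of 13 in each, and Fgf genes at 6 of 11 in SAHA and 5 of 11 in diluent. The count was 3 of 5 in each for Six-type genes, 3 of 7 in each for Tbx and for Nkx genes, and 2 of 5 in SAHA and 3 of 5 in diluent for Lhx genes, and Isl2, the only Isl member, was marked in both. None of the 7 Pax genes, which include the B cell factor Pax5, had an H3K4me3 region within 5 kb in either condition.

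**Figure D1:**
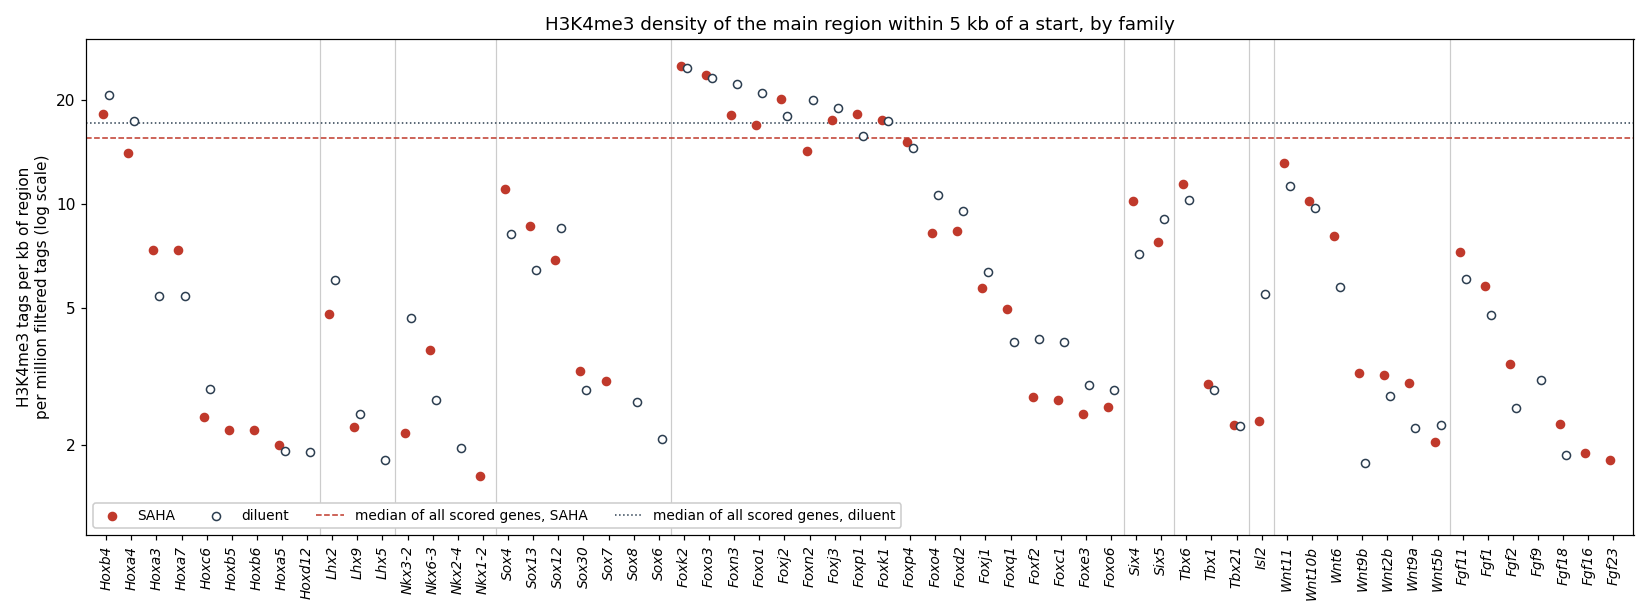
H3K4me3 tags per kb of region per 1000000 filtered tags (log axis) in the region with the most tags within 5 kb of a start, for 61 family genes with a counted region, SAHA filled and diluent open, with families separated by grey lines and lines at the median of all scored genes. Most points lie below both medians, Fox genes hold most of those above, and at Foxf2, Foxk2, Foxp1, Isl2, Lhx9, Sox4 and Wnt5b the points of the conditions come from different regions of the gene.

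Where the mark was present it was mostly weak. In the region with the most tags at each gene, the 58 genes with a count in SAHA had a median density of 6.31 tags per kb per 1000000 filtered tags, against 15.5 over all scored genes, and the 58 in diluent had 5.61, against 17.1. Regions under 100 tags made up 31.0% of the developmental genes in SAHA and 32.8% in diluent, against 8.61% and 8.55% over all scored genes. The range was wide, 1.63 to 24.99 in SAHA and 1.77 to 24.8 in diluent. A density of 10 or more was reached by 20 genes in SAHA and 18 in diluent. The plot of density by family shows Fox genes from the top of the range to near the bottom.

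Forkhead genes held most of the strong regions. Foxo3, a factor switched off by growth factor signals through AKT, had 2974 tags in SAHA and 3048 in diluent over 5902 and 5875 bp, the widest region of the families. Its relative Foxo1, which acts in lymphocytes and in metabolism, had 2062 tags in SAHA and 2266 in diluent, and Foxo4 had 456 and 607. Foxp1, a factor of B cell and monocyte development, had strong regions at both of a pair of starts. The upstream one held 1726 tags in SAHA and 1632 in diluent, and the other 1297 in SAHA and 1645 in diluent. Foxn2 had 1616 tags in SAHA and 1957 in diluent, Foxn3 1094 and 1434, Foxj2 1581 and 1254, and Foxj3 1154 and 1240. Foxk1, a repressor of autophagy genes, had 1318 tags in SAHA and 1263 in diluent. Foxk2 had the highest density of all members, 24.99 in SAHA and 24.78 in diluent, in neighbouring regions of 1313 bp in SAHA and 1287 bp in diluent. The forkhead gene with the fewest tags was Foxe3, a lens factor, which had 47 tags in SAHA and 87 in diluent.

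Outside the Fox family, strong regions were few. Hoxb4 had 1182 tags in SAHA and 1229 in diluent, and Wnt11, a ligand of the branch that does not use beta-catenin, had 1560 and 1262. Sox4, which is needed for B lymphocyte and heart development, carried regions of 5657 bp in SAHA and 5586 bp in diluent, among the 5 widest in each library. They held 510 tags in SAHA and 1025 in diluent. Foxo1, Wnt11 and Foxp1 completed the 5 widest, at 5677, 5542 and 5417 bp in SAHA and 4846, 4989 and 4687 bp in diluent.

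Of 23 family genes with known roles in blood and immunity, 17 were scored, and 14 of them had H3K4me3 in both conditions (82.4%, against 83.1% of all scored genes): Foxo1, Foxo3, Foxo4, Foxp1, Foxp4, Foxj1, Foxk1, Foxk2, Sox4, Hoxa7, Hoxb4, Lhx2, Tbx21 and Wnt10b. The remaining 3 were Pax5, Nkx2-3, a gene of spleen and gut vessels, and Foxn1, the thymic epithelial factor. The regions of the 14 ran from 38 tags in SAHA and 39 in diluent at Tbx21, which encodes T-bet, to those of Foxo3. Of 25 genes of the nervous system and sense organs, 14 were scored, with a region at 2 in SAHA (Lhx9 and Isl2) and 3 in diluent (the same pair and Lhx5). Of 22 genes of heart, gut, lung and glands, 13 were scored, and 5, among them Tbx1, Foxf2, Foxc1 and Sox18, had a region in both conditions.

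The Hox clusters were marked in part. Hoxa4 had 455 tags in SAHA and 605 in diluent, and Hoxa5 35 and 38. A region at an upstream start of Hoxa3, also within 5 kb of Hoxa7, held 453 tags in SAHA and 319 in diluent. Hoxa7's own region, at the far end of this stretch, had 70 tags in SAHA and 106 in diluent. Beyond it no H3K4me3 region was listed for 83.6 kb in SAHA and 83.7 kb in diluent, up to a region assigned to Evx1. The later Hoxa genes lie between Hoxa7 and Evx1 in the mouse genome, and the lists assigned them no region.

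In the Hoxb cluster the strong mark stood at Hoxb4, a factor of blood stem cells, with 1182 tags in SAHA and 1229 in diluent. Regions assigned to Mir10a, the microRNA gene beside it, and to AK002860 followed in both conditions, that of AK002860 with 218 tags in SAHA and no count in diluent. Farther along, only the SAHA list had regions, 33 tags at Hoxb5, within 5 kb of Hoxb6 too, and 43 tags at a region assigned to Hoxb6. Hoxc6 had 51 tags in SAHA and 52 in diluent. Hoxd12, a gene of the distal limb, had a region of 32 tags in diluent and none listed in SAHA.

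**Figure D2:**
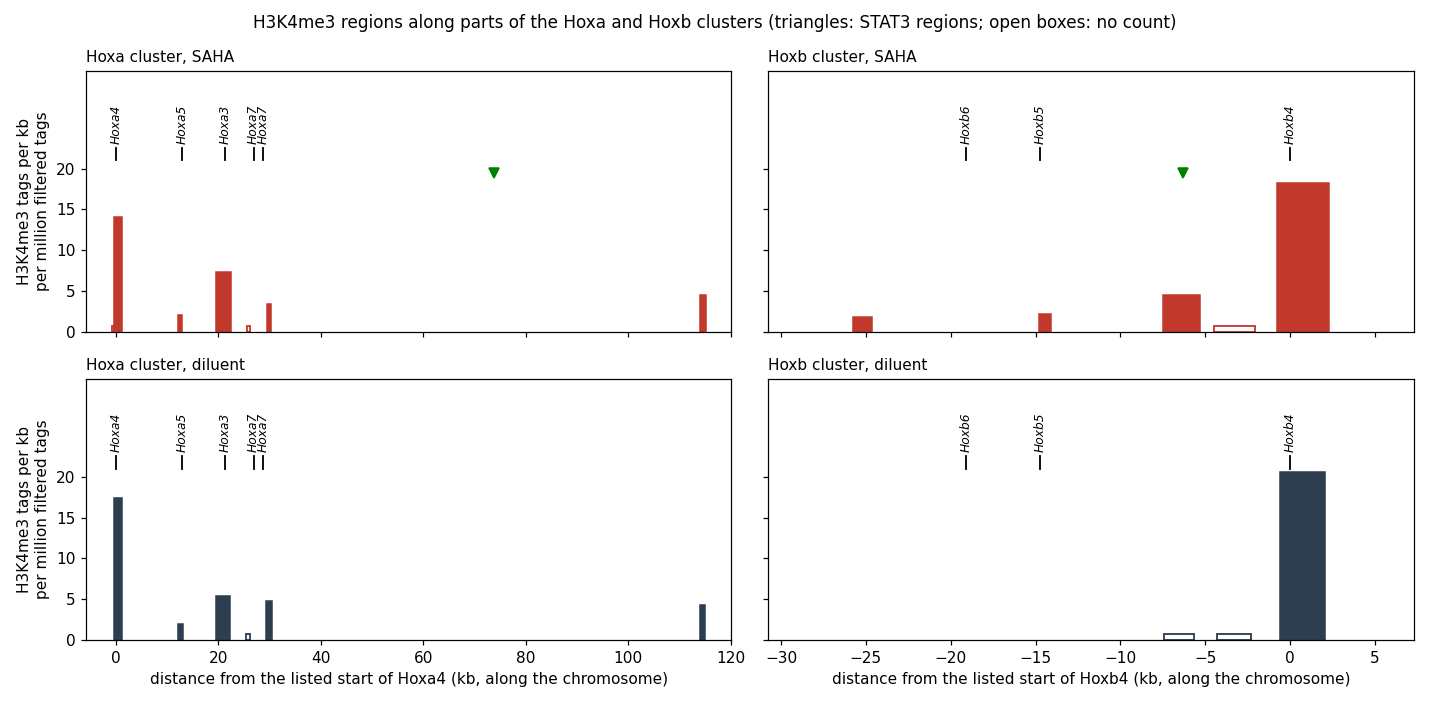
H3K4me3 regions along parts of the Hoxa and Hoxb clusters in SAHA (top) and diluent (bottom), with distance in kb from the listed start of Hoxa4 or Hoxb4 on the x axis and tags per kb per 1000000 filtered tags on the y axis. Boxes span the called regions, open boxes have no count, ticks mark listed starts and triangles STAT3 regions, and the stretch after Hoxa7 holds no H3K4me3 region for 83.6 kb in SAHA and 83.7 kb in diluent.

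Tag ratios of SAHA over diluent could be taken at 50 of the 106 genes, and 46 of them differed by less than 2-fold. They were taken where a region overlapped 1 to 1 between the lists and both had counts, and each library was scaled to its filtered tags. Over 50 genes the log2 ratio, SAHA over diluent, had a median of 0.11, against -0.05 over 10770 scored genes. Per kb of region the medians were 0.06 and -0.13. The 95% interval, an exact binomial one for counting error only, lay above 0 at 21 of the 50 genes (20.6% of scored genes) and below 0 at 12 (31.6% of scored genes). Since weak regions of all genes also had higher ratios, the genes were set beside others of the same mean density over both libraries. Under 5 tags per kb per 1000000 the median was 0.03 over 19 developmental genes and 0.20 over all scored genes. From 5 to 10 it was 0.19 over 14 and 0.14 over all, and at 10 or more it was 0.11 over 17 and -0.07 over all.

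Only 4 genes differed by 2-fold or more in either direction, 2 higher in SAHA (2.24% of scored genes) and 2 lower (0.464%). Wnt9b, a ligand of kidney tubule induction, had 112 tags in SAHA and 32 in diluent, log2 1.87 (95% interval 1.29 to 2.49). Nkx6-3, a homeobox gene of the stomach, had 92 tags in SAHA and 48 in diluent, log2 1.0 (interval 0.49 to 1.54). That region lay 3.56 kb from the listed start by midpoint in diluent. Isl2, a LIM homeobox gene of motor neurons, had 39 tags in SAHA and 214 in diluent, log2 -2.39 (interval -2.92 to -1.89), at a region 5.24 kb from its start by midpoint in diluent. Its region at the start moved the same way, with 39 tags in SAHA and 137 in diluent. Nkx3-2, a skeletal and spleen homeobox gene, had 40 tags in SAHA and 140 in diluent, log2 -1.74 (interval -2.29 to -1.23). That region lay 3.98 kb from the listed start by midpoint in diluent, and a diluent region at the start had no count. Neurod1, the scored neural marker, moved with Isl2, with 26 tags in SAHA and 73 in diluent (log2 -1.42), while the epithelial marker Cdh1 had 847 and 672 (log2 0.40), and the part of other cell types in the result was not tested. All 4 regions were weak, with at most 214 tags in either library.

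Called width moved with these counts. The Wnt9b region was 1612 bp in SAHA and 806 bp in diluent, and the largest Isl2 pair 778 bp in SAHA and 1739 bp in diluent. Per kb the log2 ratio was 0.87 for Wnt9b, 0.49 for Nkx6-3, -1.23 for Isl2 and -1.10 for Nkx3-2. So per kb no gene was 2-fold higher (0.399% of scored genes) and 2 were 2-fold lower (0.0557%).

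**Figure D3:**
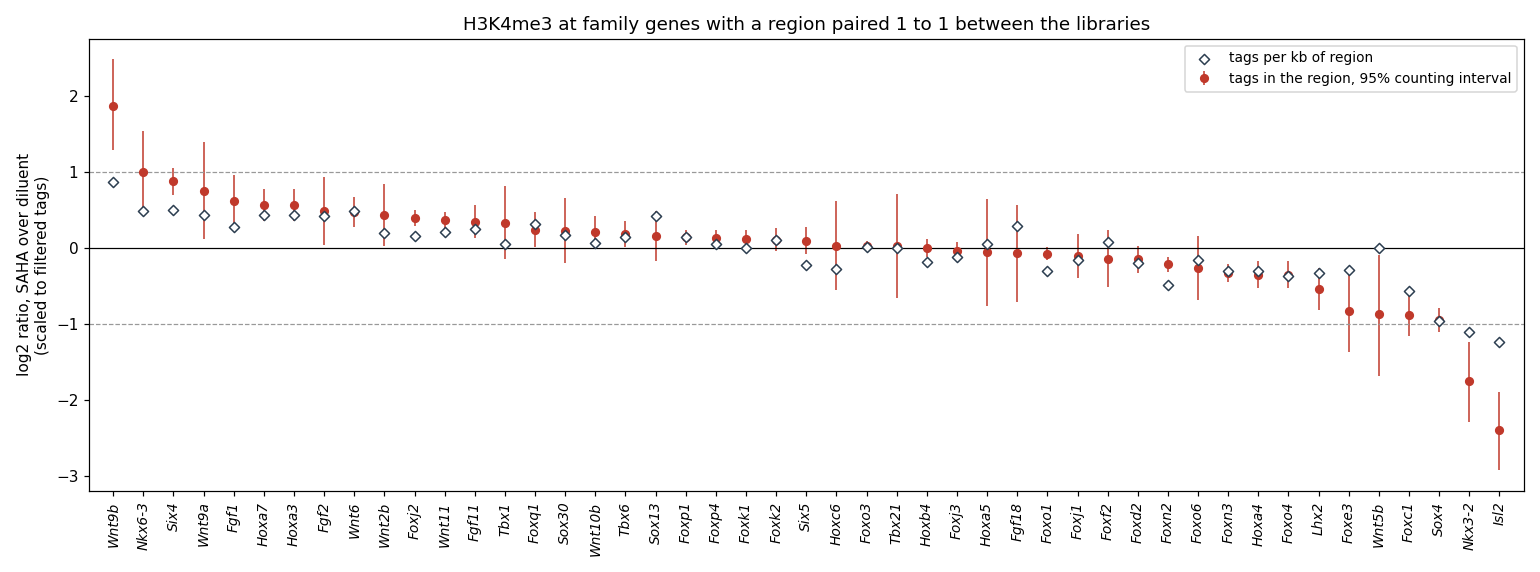
Log2 ratio of H3K4me3 tags in SAHA over diluent at 47 of the 50 family genes with a paired region, ordered by size, with filled points for tags and their 95% counting interval and open diamonds for tags per kb. Wnt9b and Nkx6-3 lie at or above 1, Isl2 and Nkx3-2 below -1, and the diamonds lie nearer 0 at these 4 genes.

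Of the 13 Wnt ligands, 7 had a ratio, and 6 of these had an interval above 0 and 1 below (20.6% and 31.6% of all scored genes, and 35.1% and 13.7% of those under 5 tags per kb per 1000000, and 40.3% and 16.7% of those from 5 to 10), with a median log2 ratio of 0.44 by tags and 0.22 per kb. Besides Wnt9b, Wnt9a, a ligand of joint formation, had 58 tags in SAHA and 36 in diluent (log2 0.75). Wnt6 had 479 and 360 (log2 0.48), Wnt2b 119 and 92 (log2 0.44), and Wnt11 a log2 ratio of 0.37. Wnt10b, known for promoting bone formation, had 403 tags in SAHA and 363 in diluent (log2 0.22). That region lay 4.38 kb from a listed start by midpoint in diluent, and regions nearer the Wnt10b starts had no count. Wnt5b was the exception by its paired region, with 22 tags in SAHA and 42 in diluent (log2 -0.87). An added SAHA region of 64 tags beside it turned the sum within 5 kb round, to 86 tags in SAHA and 42 in diluent.

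The receptors and relays of these ligands are read beside all scored genes, of which 85.2% had H3K4me3 in SAHA and 84.2% in diluent. Of 15 scored genes among 17 Wnt receptors and carriers, 14 (93.3%, interval 68.1 to 99.8%) had H3K4me3 in SAHA and 15 in diluent, with a median log2 ratio of 0.08 over 12. Lrp5, a Wnt co-receptor, had 493 tags in SAHA and 326 in diluent (log2 0.66), and Fzd3, a Frizzled receptor, had 58 and 111 (log2 -0.87). Of 19 genes of the relay inside the cell and its targets, 17 (89.5%, interval 66.9 to 98.7%) were marked in SAHA and 18 in diluent. The median over 14 was -0.03, with 4 intervals above 0 and 4 below (20.6% and 31.6% of all scored genes). Bcl9l, a beta-catenin co-activator, had 1493 tags in SAHA and 739 in diluent (log2 1.08, per kb 0.82), and Ctnnb1, beta-catenin itself, had 1704 and 1393 (log2 0.36). Dvl2, which relays the signal from Frizzled, had 687 tags in SAHA and 891 in diluent (log2 -0.31), and Csnk1a1, a kinase of the beta-catenin destruction complex, had 2825 and 3295 (log2 -0.16).

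Fgf ligands with a ratio were 4, and 3 had an interval above 0 and 0 below (20.6% and 31.6% of all scored genes). Of scored genes with a mean density under 5, 35.1% had an interval above 0 and 13.7% below. From 5 to 10 these shares were 40.3% and 16.7%. Fgf1, the acidic growth factor, had 173 tags in SAHA and 118 in diluent (log2 0.62), and Fgf2, the basic one, had 102 and 76 (log2 0.49). Fgf11, which stays inside the cell, had 390 and 320 at a region the list assigns to G630025P09Rik (log2 0.35). Beside it lay a region of 292 tags found in SAHA only, at chr11:69613511-69615643 (mm9). The sums within 5 kb of Fgf11 were 682 tags in SAHA and 320 in diluent. Among 13 scored FGF receptors and relays, 12 carried H3K4me3 in both conditions, with a median log2 ratio of 0.11 over 8. Fgfr1 had 308 tags in SAHA and 232 in diluent (log2 0.47), and Spry4, a feedback inhibitor, had 309 and 212 (log2 0.61). Of the 8 ratios, 2 had an interval above 0 and 3 below (20.6% and 31.6% of all scored genes). Spry1, another such inhibitor, had 300 tags in SAHA and 404 in diluent (log2 -0.36), and Fgfr3 had 341 and 437 (log2 -0.29).

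Transcription factor genes moved in both directions. Six4, a homeobox gene of muscle development, had 696 tags in SAHA and 395 in diluent (log2 0.88, per kb 0.50). Sox4 had a log2 ratio of -0.94 (interval -1.10 to -0.79) over a region of nearly equal width, so that its ratio per kb was -0.96. A neighbouring Sox4 region had 562 tags in SAHA and 610 in diluent (log2 -0.05). Foxc1, a gene of mesoderm and eye, had 170 tags in SAHA and 327 in diluent (log2 -0.88), and Foxe3 a log2 ratio of -0.82. Lhx2, which acts in forebrain and blood stem cells, had 189 tags in SAHA and 286 in diluent (log2 -0.53). Hoxa4 and Foxo4 each had a log2 ratio of -0.35 and Foxn3 -0.33. Foxj2 had 0.40 and the region shared by Hoxa3 and Hoxa7 0.57, while Hoxa7's own region had -0.53 (interval -0.99 to -0.08). Foxo3, with the most tags of all, had 0.03, and Hoxb4 0.01. Over the 18 Fox genes the median was -0.09, with 5 intervals above 0 and 5 below (20.6% and 31.6% of all scored genes). Over 14 blood and immune genes the median was 0.03, with Hoxa7 represented by the region shared with Hoxa3.

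A further 11 genes had H3K4me3 within 5 kb in only 1 condition, and their regions held at most 108 tags. In SAHA only, they stood at Sox7, a factor of blood vessel formation (108 tags), Fgf16 (37 tags), Hoxb5 and Hoxb6 (a shared region of 33 tags), Fgf23, the phosphate hormone (32 tags), and Nkx1-2 (20 and 17 tags). In diluent only, they stood at Fgf9, a ligand of lung and gonad development (100 and 53 tags), Sox6, a factor of cartilage and red cell development (67 and 46 tags), Nkx2-4 (53 and 33 tags), Hoxd12 (32 tags) and Lhx5, a forebrain gene (28 tags). A gene missing from a list is not a count of 0. Called without a control, the diluent library had a region of 22 tags over the Sox7 region, and the SAHA library one of 25 tags over a Sox6 region. The Fgf23 region lay 6.08 kb from a diluent region of 265 tags.

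All 8 scored HOX cofactors of 9 had H3K4me3 in both conditions, where 83.1% of all scored genes did. Meis3 had 554 tags in SAHA and 328 in diluent (log2 0.82), and Meis2 had 83 and 154 (log2 -0.83). All 24 scored Polycomb and Trithorax genes of 25 were marked in both, with a median log2 ratio of -0.03 over 21. Their range ran from -0.27 at Cbx8 to 0.44 at Cbx2, which encode Polycomb subunits. A STAT3 region lay within 5 kb of 6 of these 24 genes in SAHA (interval 9.77 to 46.7%), among them Ezh2, which encodes the H3K27 methyltransferase, and of 0 in diluent, where 18.3% of all scored genes had one in SAHA and 6.39% in diluent. Among the 8 HOX cofactors 3, Pbx3 and Pknox1 among them, had one in SAHA and 0 in diluent.

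No developmental gene had a STAT3 region within 5 kb in both libraries. In SAHA 15 of 106 genes had one (14.2%, interval 8.14 to 22.3%), where 18.3% of scored genes did. In diluent 2 had one (1.89%, interval 0.229 to 6.65%), where 6.39% of scored genes did. Genes with one in both numbered 0 (1.83% of scored genes), and 17 had one in either (22.9% of scored genes). The SAHA list holds 8552 regions and the diluent list 3507, and with equal numbers of top regions the counts were 7 in SAHA and 2 in diluent. Most STAT3 regions carry no tag count, so the values given are the authors' MACS scores, which rank regions only within a list.

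The STAT3 regions of SAHA fell at both marked and unmarked genes. H3K4me3 in SAHA was also present at 7 of the 15 genes (46.7%, interval 21.3 to 73.4%), where 56.6% of all 106 genes had it, and 91.7% of all scored genes with a STAT3 region in SAHA. Of the 8 without it, 5 (Fgf15, Foxa2, Foxc2, Pax4 and Wnt8a) were assigned no H3K4me3 region and are among the 106 through STAT3 regions, so the choice of genes bears on this share. Among the marked genes, Foxo3 had STAT3 scores of 56.53 and 48.57 in the authors' list, Foxp1 47.66 and 31.03, Six5 43.28 and 42.44, and Wnt6 41.81 and 34.63. Foxj2 had 39.62, Wnt5b 36.12 and Tbx1, a gene of the pharyngeal arches, 35.33. The genes without H3K4me3 within 5 kb were led by Tbx4, a hindlimb gene, with 41.59, and Foxe1, a thyroid gene, with 39.93. They went on with Wnt10a at 36.22, Foxa2, a pioneer factor of endoderm, at 35.48, and Wnt8a at 32.98. Tbx4, Foxe1 and Wnt10a were assigned H3K4me3 regions farther away. That 8.74 kb from Wnt10a had 554 tags in SAHA and overlapped another STAT3 region, of score 32.59. Pax4, a gene of insulin-producing cells, had 30.93, Foxc2, a gene of lymphatic vessels, 30.90, and Fgf15, an intestinal hormone, 30.24. These last scores lie near 30, the lowest in the list. In diluent, STAT3 regions stood at Foxp4, listed under its older name mFKHLA, with 31.86 at its H3K4me3 region, and at Foxn1 with 30.91.

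**Figure D4:**
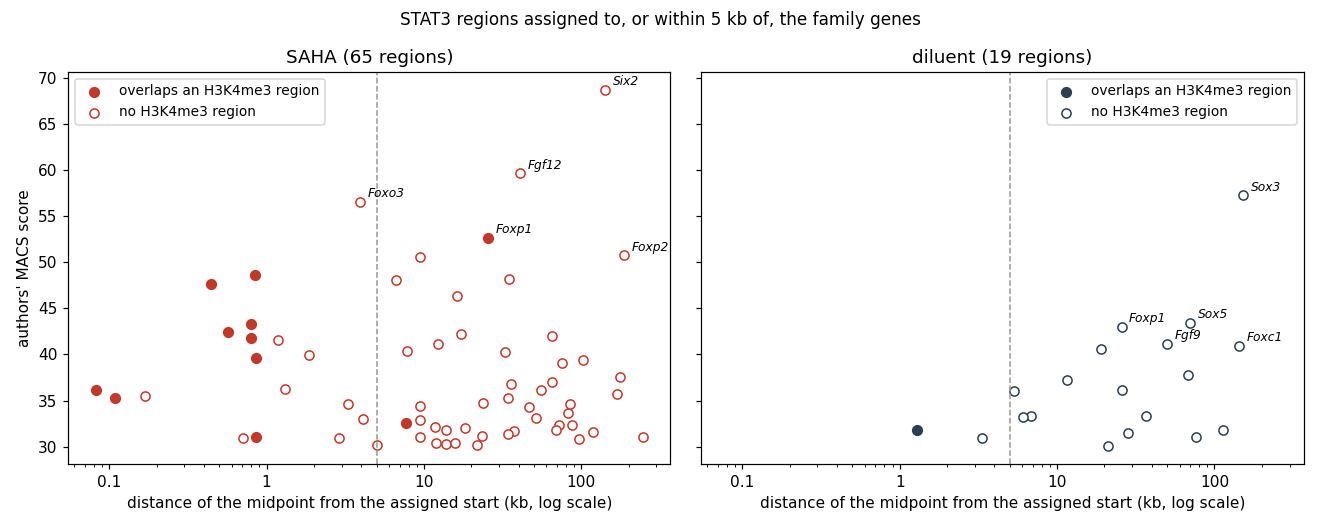
The authors' MACS score of each STAT3 region assigned to, or within 5 kb of, a family gene against the distance of its midpoint from the start (kb, log axis), in SAHA (left, 65 regions) and diluent (right, 19 regions), filled where it overlaps an H3K4me3 region of the same condition. The dashed line marks 5 kb, and the highest regions are Six2 in SAHA at 68.70 and Sox3 in diluent at 57.24, both over 100 kb away.

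Most STAT3 regions assigned to these genes lay far from them. In SAHA 65 regions were assigned to 46 of the genes, and 72.3% lay beyond 5 kb, against 67.6% of all 8552 regions. In diluent 18 regions were assigned to 14 genes by current symbol, and 94.4% lay beyond 5 kb, against 74.5% of all 3507. Regions at H3K4me3 made up 16.9% in SAHA, against 27.2% of all, and 0 of 18 in diluent, against 24.9% of all, but the Foxp4 region listed as mFKHLA, which is not among the 18, does lie at H3K4me3. The highest score in SAHA was 68.70, 142 kb from Six2, a gene of nephron progenitors, and in diluent 57.24, 151 kb from Sox3, a neural gene. Regions that overlapped between the conditions were found at 2 places. That 25.6 kb from a start of Foxp1 scored 52.65 in SAHA and 42.99 in diluent, and that 69.5 kb from Sox5 scored 31.83 in SAHA and 43.42 in diluent. In the Hoxa stretch without H3K4me3, the SAHA list had 1 STAT3 region, assigned to AK033508 (54.42).

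STAT3 is known to bind TTCNNNGAA, and the promoters were searched for these letters, which read the same pattern on both strands. They occurred in the promoter of 7 of 73 family genes (9.59%), against 8.92% of all protein-coding genes, and in 8.30% of all 32841 promoters of 300 bases. Of the 17 genes with a STAT3 region, 11 had a promoter in the table and 1, Wnt5b, held the letters. That stretch is shown beside those of Foxn3 and Pax2, which held the letters and had no STAT3 region within 5 kb, with the motif in capitals.
Wnt5b: acagcaggccTTCCTGGAAagtcctgtga
Foxn3: caacctgcttTTCACTGAAgagtgtcatt
Pax2: gggatggggcTTCAGGGAAagactgtgtg

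The stretches come from promoters at chr6:119467162-119467461 (minus strand) for Wnt5b, chr12:99450025-99450324 (minus) for Foxn3 and chr19:44746351-44746650 (plus) for Pax2, all on GRCm38.p6. The called regions are on mm9, so the letters were not placed within a region. RefSeq gives Wnt5b several promoters, and the one with the letters was not matched to the listed start beside the STAT3 and H3K4me3 regions. Foxn3 had strong H3K4me3 at 1 of its 2 listed starts, with no STAT3 region within 5 kb of either. The Foxn3 promoter with the letters was likewise not matched to a listed start.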

How the data were processed

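ChIP-seq of STAT3, H3K4me3 and IgG in dendritic cells gave 1 library per group. The submitters' processing notes name BWA and the mm9 build. MACS 1.4.0rc2 was run per library with no control, a p-value cutoff of 1e-05 and up to 2 duplicates kept at a position, per the file headers. The resulting deposited tables list a tag count, a fold enrichment (a ratio over local background, not used for results) and a score per region. The deposited lists against IgG give a score and 1 assigned gene per region, and their calling settings are not given in the sources used here. The score of 30 is the lowest in the STAT3 lists and 50 in the H3K4me3 lists. Depth per library is in the report.

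A gene carried a region lying within 5 kb of a start that any of the 4 lists gives. Counts came from single-library regions with the same ends as a listed region, which held for 22114 of the H3K4me3 regions in SAHA and 20244 in diluent, but for only 109 STAT3 regions in SAHA and 68 in diluent. Regions were paired when they overlapped 1 to 1 by at least 1 bp, the pair with most tags stood for a gene, and counts were scaled to filtered tags. Intervals are 95% intervals for counting error. With 1 library per group no p-value between conditions was computed. The ratio step was tested on simulated data.

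Named genes were the 10 members with most H3K4me3 tags, the 10 largest and 10 smallest ratios, those marked in only 1 condition, those with STAT3 regions, the blood and immune list, and the 5 widest regions. The members and lists were chosen with earlier results of these data known. Symbols were matched to RefSeq names (GRCm38.p6), for 87.1% of 17024. Promoters are RefSeq's. Alternatives were other distances, equal numbers of top regions, FGF receptors counted, regions at IgG regions left out, tags per kb, centring on all pairs, sums within 5 kb, a 50% overlap, at least 50 tags, and, chosen after seeing the data, only regions assigned to the member. Python 3.11.15, numpy 2.4.6, scipy 1.17.1, pandas 2.3.3 and matplotlib 3.10.9 were used. Values of a few genes are not reported here.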

Additional observations from a re-analysis of the deposited data

How the results depend on the processing

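Of 37 alternative values, 30 stayed within 1.5 times the reported count or within the interval of the reported median. Genes with H3K4me3 numbered 56 to 63 in SAHA and 55 to 66 in diluent, and the median log2 ratio lay between 0.06 and 0.12. The STAT3 count in SAHA, 15 as reported, was 25 within 10 kb and 7 with equal numbers of top regions. The STAT3 count in diluent, 2 as reported, was 1 within 1 kb, 5 within 10 kb and 1 with only regions assigned to the member. Genes at least 2-fold higher in SAHA, 2 as reported, numbered 0 per kb and 5 by sums within 5 kb, which added Sox7, Fgf11 and Wnt5b to Wnt9b and Nkx6-3. Genes at least 2-fold lower, 2 as reported, numbered 3 by sums, with Sox6 added (25 tags in SAHA and 113 in diluent, log2 -2.11). The sums within 5 kb for Isl2 were 39 tags in SAHA and 351 in diluent, since 1 of its SAHA regions lay just beyond 5 kb. No paired analysis was possible because each group had 1 library. Weak regions set the limit of depth: under 100 tags, which held for 18 of 58 genes in SAHA and 19 of 58 in diluent, an interval is wide, as at Tbx21 with -0.66 to 0.71.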

Other observations

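H3K4me3 regions farther from the starts of these genes also differed between the libraries. A region 42.1 kb from a Foxp1 start had 105 tags in SAHA and 37 in diluent, log2 1.57 (95% counting interval 1.02 to 2.15), but 0.33 per kb. A region 23.3 kb from Foxk1 had 402 tags in SAHA and 824 in diluent, log2 -0.97 (interval -1.15 to -0.80), and -0.84 per kb. A region near Wnt7b, a ligand of lung and placenta development with no H3K4me3 within 5 kb of a listed start, had 62 tags in SAHA and 35 in diluent, log2 0.89 (interval 0.27 to 1.53), and 0.12 per kb. Of all H3K4me3 regions assigned to the family genes, 22.4% of 147 in SAHA overlapped no diluent region, against 17.8% of all SAHA regions. In diluent 14.6% of 137 overlapped no SAHA region, against 5.37% of all diluent regions. Counted regions of family genes were weaker, with a median density of 3.96 in SAHA and 4.16 in diluent, against 7.19 and 8.89 over all. The shares were not matched for strength, and its part in them was not tested. The regions described here were named after their values were seen.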
